A study of Mus musculus with 16 samples.

Results

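Mest, Sfrp5, Bmp3, Npr3 and Trp53inp2 are 5 genes known to follow how far the white fat of mice expands, and they were described here over the 4 combinations of tissue and genotype. All probes that the platform annotation names for these genes were taken, 7 of 25697, with 3 for Mest and 1 for each other gene. The study measured RNA of white adipose tissue and femur from 8 male C3HeB/FeJ mice, an inbred strain, aged 17 weeks, with 16 Illumina bead arrays. Its groups were white adipose tissue of AEA001 mutants, white adipose tissue of wild types, femur of AEA001 mutants and femur of wild types, with 4 arrays each. AEA001 is a mouse line made with the mutagen ENU, presented by its submitters as a model of osteoporosis, and its known lesion lies in Ednra, which encodes a receptor for endothelins. ENU makes point mutations at random over the genome, the labels do not give the number of mutant alleles per animal, and neither the fat depot nor body or fat weights are in the labels. Each animal gave 1 femur and 1 white adipose array, but AEA001 mutant replicate 4 and wild type replicate 3 carry the same identifier, so that there are 7 identifiers for 8 mice.

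White fat grows when adipocytes take up more lipid and when new adipocytes form, and genetically identical mice differ in how much their fat grows on a rich diet. In mouse white fat, the transcripts of these genes are known to be high while fat mass expands. They act at different places. Mest encodes an enzyme-like protein of the endoplasmic reticulum and is imprinted, with the paternal copy expressed. Sfrp5 encodes a secreted protein that binds Wnt ligands, Bmp3 a secreted ligand of the bone morphogenetic protein family that is also made in bone and opposes other members of the family there, Npr3 the receptor that clears natriuretic peptides, and Trp53inp2 a cofactor of nuclear receptors that also takes part in autophagy and restrains fat cell formation in mouse cells.

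Since several of the genes moved together between the white adipose arrays, the sequence before the start site is shown for the 3 genes with the lowest mutant-to-wild-type ratios by 1 or more probes. Each line holds the 250 bases before a RefSeq start (build GRCm38.p6), 5′ to 3′ on the strand of the gene. They lie at chr2:155381606-155381855 (plus strand) for Trp53inp2, chr19:42202253-42202502 (minus strand) for Sfrp5 and chr6:30737800-30738049 (plus strand) for Mest. Capitals mark matches, on either strand, to the GC box with letters GGGCGG, the CCAAT box with the letters of its name, the TATA box with letters TATAAA, the cAMP response element with letters TGACGTCA, the E-box with letters CACGTG or the C/EBP palindrome with letters TTGCGCAA. No match overlapped another.
Trp53inp2: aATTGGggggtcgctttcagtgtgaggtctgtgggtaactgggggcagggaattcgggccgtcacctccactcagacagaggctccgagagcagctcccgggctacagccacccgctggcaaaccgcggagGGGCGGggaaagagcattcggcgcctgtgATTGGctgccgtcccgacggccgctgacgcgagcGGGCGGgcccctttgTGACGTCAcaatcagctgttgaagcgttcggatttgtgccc
Sfrp5: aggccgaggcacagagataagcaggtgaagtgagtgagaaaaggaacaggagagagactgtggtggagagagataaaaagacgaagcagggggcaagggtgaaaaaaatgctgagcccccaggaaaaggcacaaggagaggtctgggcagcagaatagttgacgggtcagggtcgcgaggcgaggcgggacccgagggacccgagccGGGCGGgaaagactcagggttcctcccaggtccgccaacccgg
Mest: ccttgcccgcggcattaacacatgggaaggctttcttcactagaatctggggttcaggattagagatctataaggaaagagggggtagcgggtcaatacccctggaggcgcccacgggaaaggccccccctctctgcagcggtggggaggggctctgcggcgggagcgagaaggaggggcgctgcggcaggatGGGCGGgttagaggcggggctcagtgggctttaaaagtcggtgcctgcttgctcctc
Promoters were at hand for 4 of the 5 genes, not for Bmp3. By the brightest probes the ratio of Bmp3 (64.3%) was below that of Mest (67.3%). The GC box was in the window of each of the 3 genes shown, and 32.7% of the 32851 promoter windows of that length hold it. The window of Npr3, not shown, held no GC box but a CCAAT box at 64 bases before its start. The CCAAT box, in 33.8% of all windows, was found 2 times in Trp53inp2 and in neither other window shown. The cAMP response element, in 1.55% of all windows, was found at 41 bases before the start of Trp53inp2. The TATA box, in 12.4% of all windows, the E-box, in 6.02%, and the C/EBP palindrome, in 0.164%, were not in these windows. A match describes the letters only.

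Values are the authors' normalized probe intensities, whose array medians lay between 25.2 and 25.3. Intensities under 16 were set to 16 before log2, and testing in a tissue required more than 16 on 4 or more of its 8 arrays. Log2 differences are given with limma's moderated SE. Precision is set by the number of arrays, 4 in each group. The arrays carried the markers of their tissue: Adipoq, the adiponectin gene, averaged 20643 ± 1474 and 17156 ± 1084 (SD, n = 4 each) in white adipose tissue of mutants and wild types, and Bglap, the osteocalcin gene, 14073 ± 1026 and 13302 ± 2139 (SD, n = 4 each) in femur of mutants and wild types. One array, that of mutant replicate 2 in white adipose tissue, stood apart. Among 71 probes bright in femur but no higher than 16 in the white adipose tissue of the other 7 mice, 61 passed 16 on it, with the median probe at 1.58% of its mean femur signal. Without that array the white adipose log2 differences of the brightest probes were -0.63 for Mest, -1.21 for Sfrp5, -0.63 for Bmp3, -0.41 for Npr3 and -0.68 for Trp53inp2, with 0 called by limma.

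In white adipose tissue all 7 probes had a lower mean in AEA001 mutants than in wild types, by log2 differences of -0.36 to -1.02. By limma, 0 of the 7 probes passed an adjusted p of 0.05, against 2 of all 14342 probes tested (0.0139%). All 7 were lower at an unadjusted p under 0.05, as were 13.4% of all probes, while 12.7% were higher at that p. Over the brightest probe of each of the 5 genes the median log2 difference was -0.64, against 0.02 over all probes, of which 47.5% were below 0. In bulk tissue, fewer cells of a type and less RNA per cell cannot be told apart.

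**Figure D1:**
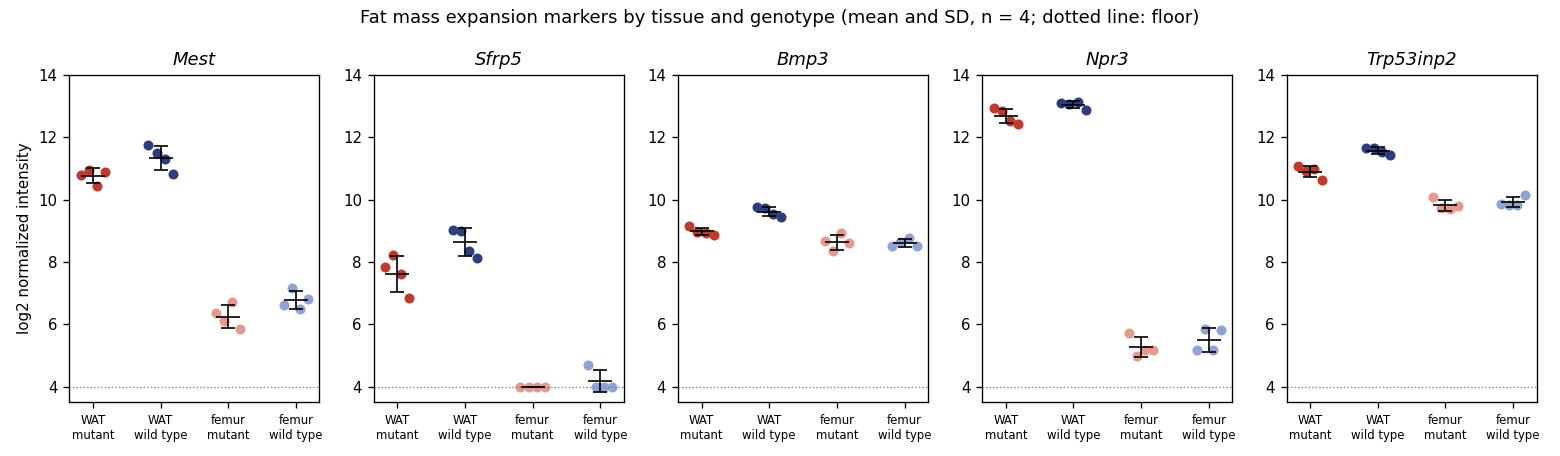
Log2 normalized intensity (y axis) of the brightest probe of each gene on every array, for white adipose tissue (WAT) of mutants and wild types and femur of mutants and wild types, with the mean and SD of 4 arrays (bars) and the floor at 4 (dotted line). In white adipose tissue the mutant mean lies under the wild-type mean for each of the 5 genes, and both femur means lie lower than both white adipose means.

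Mest, by its brightest probe, had intensities of 1774, 1971, 1375 and 1898 in mutant white adipose tissue (replicates 1 to 4), against 3404, 2880, 2542 and 1789 in wild-type white adipose tissue. The mutants lay close together, and wild type replicate 4 fell among them, so that the groups overlapped. The log2 difference was -0.57 ± 0.20, or 67.3% of the wild-type level (limma adjusted p = 0.143, exact permutation p = 0.0857). The other probes of Mest gave -0.67 ± 0.25 (limma adjusted p = 0.154) and -0.68 ± 0.22 (limma adjusted p = 0.125), with wild type replicate 4 the lowest wild-type array on both. Over the 8 white adipose arrays the log2 signals of the 3 Mest probes correlated pairwise at a Pearson r of 0.86 to 0.96, as a description of probes of 1 transcript.

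Sfrp5, the Wnt-binding protein, showed the most negative log2 difference of the 5 genes. Its intensities were 228, 295, 194 and 114 in mutant white adipose tissue, against 526, 513, 329 and 282 in wild-type white adipose tissue. The groups overlapped by 1 pair of arrays, mutant replicate 2 lying just over wild type replicate 4. The log2 difference was -1.02 ± 0.32, with a 95% interval of -1.74 to -0.30, or 49.4% of the wild-type level (limma adjusted p = 0.122, exact permutation p = 0.0571). Among all 14342 probes tested, 152 had a more negative difference.

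Bmp3, the bone morphogenetic protein ligand, had 570, 494, 491 and 470 in mutant white adipose tissue, against 866, 841, 745 and 698 in wild-type white adipose tissue. Every mutant array lay under every wild-type array, as was so, in that direction, for 7.74% of all probes. The log2 difference was -0.64 ± 0.10, or 64.3% of the wild-type level, with a 95% interval of -0.87 to -0.40. It ranked number 28 of all probes by p, but at a limma adjusted p of 0.108 it did not pass, and its exact permutation p of 0.0286 is the smallest that 4 against 4 arrays can give.

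Npr3, the clearance receptor, was bright in white adipose tissue, with 7755, 7305, 5911 and 5528 in mutants, against 8813, 8480, 8919 and 7551 in wild types. The mutants of replicates 3 and 4 lay apart below the rest, while mutant replicate 1 lay above wild type replicate 4. The log2 difference was -0.36 ± 0.13, or 77.9% of the wild-type level (limma adjusted p = 0.142, exact permutation p = 0.0571), the least of the 5 genes in size.

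Trp53inp2, the nuclear receptor cofactor, had 2136, 1922, 1999 and 1594 in mutant white adipose tissue, against 3246, 3240, 2958 and 2732 in wild-type white adipose tissue. Here too every mutant array lay under every wild-type array. The log2 difference was -0.67 ± 0.11, or 62.6% of the wild-type level, with a 95% interval of -0.93 to -0.42 (limma adjusted p = 0.108, exact permutation p = 0.0286). When the 16 arrays were fitted together, so that both tissues share 1 estimate of the spread, Trp53inp2, Bmp3 and Sfrp5 passed at limma adjusted p-values of 0.0117, 0.016 and 0.0394, and Mest and Npr3 did not. For Sfrp5 the femur values were mostly set to the floor, with log2 SDs of 0 in mutants and 0.35 in wild types. In white adipose tissue its SDs were 0.58 and 0.46. The floor thus narrows the spread shared by both tissues, and the pass of Sfrp5 follows in part from it. The fit of all 16 arrays called far more probes in white adipose tissue than the fit by tissue, 936 against 2, and 3.39% of its 15741 probes were called lower.

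The arrays of a genotype differed among themselves in the same order for several of the genes. Wild type replicate 4 was the lowest of the 4 wild-type arrays for each of the 5 genes, and mutant replicate 4 the lowest mutant for Sfrp5, Bmp3, Npr3 and Trp53inp2. The mean shift of the 5 genes from the wild-type mean was -0.49, -0.47, -0.75 and -0.90 on the log2 scale in mutant replicates 1 to 4, against 0.22, 0.15, -0.07 and -0.30 in wild type replicates 1 to 4. Without wild type replicate 4, mutants lay under wild types with no overlap for 7 of the 7 probes, against 2 of 7 with it. Over all probes that share was 12.9% without this array, and leaving out the lowest wild-type array of the members favours their separation.

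**Figure D2:**
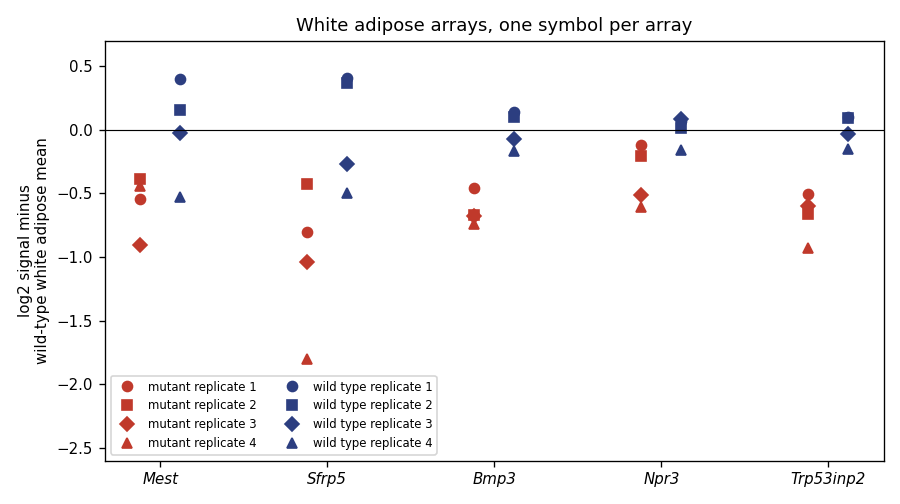
Log2 signal of the brightest probe of each gene minus its mean in wild-type white adipose tissue (y axis), with 1 symbol for each mutant array (left of each pair) and wild-type array. Bmp3 and Trp53inp2 separate the genotypes, and wild type replicate 4 is the lowest wild-type array for all 5 genes.

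Over the 8 white adipose arrays, the 5 genes varied together from array to array. Of the 10 pairs of genes, all 10 had a Pearson r that passed an exact permutation test of the pairings after Benjamini-Hochberg adjustment over the 10 pairs, with adjusted p-values from 0.00174 to 0.0423. Arrays of both genotypes were exchanged in it, so a shared genotype difference alone can let a pair pass. How many pairs of other genes would pass on these arrays was not counted, so the count does not set these genes apart. Bmp3 and Trp53inp2 correlated most closely, at a Pearson r of 0.98 (exact permutation p = 0.000174, adjusted 0.00174) and a Spearman rho of 0.98 (exact permutation p = 0.000397, adjusted 0.00397), and r was 0.99 without the 2 arrays farthest from the median of Bmp3. Sfrp5 and Trp53inp2 correlated at r = 0.90 (exact permutation p = 0.000967, adjusted 0.00484) and rho = 0.86 (adjusted 0.0179), with r = 0.78 without 2 arrays. Sfrp5 and Npr3 correlated at r = 0.89 and rho = 0.83, Npr3 and Trp53inp2 at r = 0.87 and rho = 0.88, Sfrp5 and Bmp3 at r = 0.87 and rho = 0.93, and Bmp3 and Npr3 at r = 0.86 and rho = 0.90.

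Mest was the least closely tied. Its pairs had r from 0.74 with Trp53inp2 to 0.82 with Bmp3, and rho from 0.64 to 0.86, of which only that with Sfrp5 passed (adjusted permutation p = 0.0179). Without wild type replicates 1 and 2, the arrays farthest from its median, r of the 4 Mest pairs lay between 0.41 and 0.66. Both are wild types with high Mest, so leaving them out also narrows the range and the genotype difference. How far these relations rest on that pair of arrays is therefore not settled.

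The difference between the genotypes is part of each of these correlations. Taken as deviations from the genotype means, r was 0.84 for Bmp3 with Trp53inp2 and 0.84 for Sfrp5 with Trp53inp2, each at an adjusted permutation p of 0.0455. The other 4 pairs without Mest had r from 0.68 to 0.74 (adjusted permutation p = 0.103 to 0.118), and the 4 pairs with Mest 0.29 to 0.63 (adjusted permutation p = 0.142 to 0.503). These permutations exchanged all 8 deviations freely, although the genotype means had been removed first. Their p-values are thus not exact and can be too small, so they do not settle which pairs vary together within a genotype. The 8 arrays share their normalization, and 2 of them share an animal identifier.

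**Figure D3:**
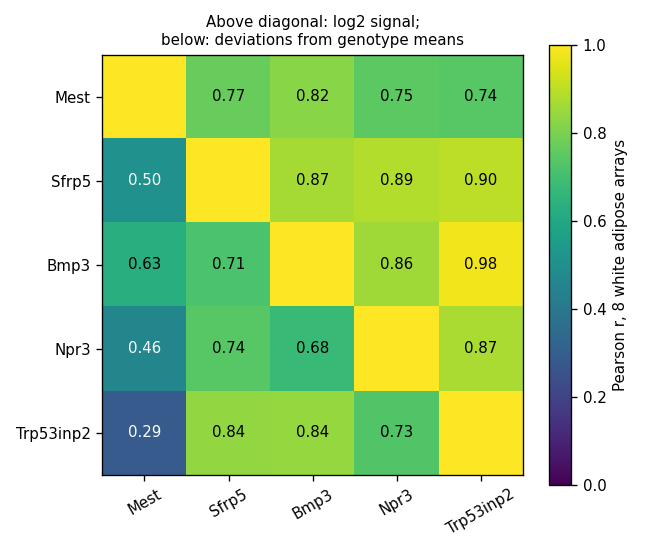
Pearson r between the brightest probes of each pair of genes over 8 white adipose arrays, from log2 signals above the diagonal and from deviations from the genotype means below it. Values above the diagonal lie between 0.74 and 0.98, and those below between 0.29 and 0.84, with the pairs that include Mest the lowest on each side.

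Among 9873 other genes measured in white adipose tissue, those most like each member over the 8 arrays, by Pearson r of log2 signal, were the following. For Mest they were Aldh1a7 (0.98), Entpd7 (0.98) and Gtf2e2 (0.97). For Sfrp5 they were Lgals9 (0.99), Cd86 (0.99) and Aldh1l1 (0.98). For Bmp3 they were Mrgprf (0.99), Apaf1 (0.99) and Fads3 (0.99). For Npr3 they were Prmt6 (0.98), Lep (0.98) and Eif2s2 (0.98). For Trp53inp2 they were Epas1 (0.99), Tiam1 (0.99) and Papss2 (0.99). All points share the normalization of the 8 arrays, and these r values are a description.

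In femur the genotypes lay closer for Bmp3 and Trp53inp2, while the brightest probe of Mest differed about as in white adipose tissue. Of the 7 probes, 6 were measured, and 0 passed the limma threshold, against 0.00700% of 14281 probes. Bmp3 had 404, 324, 489 and 391 in mutant femur, against 365, 399, 435 and 365 in wild-type femur, with the groups interleaved and a log2 difference of 0.03 ± 0.13 (limma adjusted p = 0.933). Trp53inp2 had 1085, 844, 839 and 878 in mutant femur, against 934, 901, 915 and 1140 in wild-type femur, and a log2 difference of -0.10 ± 0.12 (limma adjusted p = 0.722). Its mutant and wild-type femurs overlapped, each group holding 1 array apart above its others.

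Mest was dim in femur. Its brightest probe had 82.0, 68.2, 104 and 57.3 in mutant femur, against 99.0, 143, 90.0 and 113 in wild-type femur. The log2 difference was -0.53 ± 0.21 (limma adjusted p = 0.257, exact permutation p = 0.0857), at an unadjusted p of 0.0306, in a tissue where 8.59% of all probes were lower at an unadjusted p under 0.05. The other Mest probes did not share that difference, at -0.16 ± 0.19 and 0.00 ± 0.31, with adjusted limma p-values of 0.701 and 0.998 and intensities no higher than 82.7. Npr3 had 31.5 to 53.2 in mutant femur, against 35.8 to 57.3 in wild-type femur, and a log2 difference of -0.23 ± 0.22 (limma adjusted p = 0.624). Sfrp5 was above 16 on 0 of 4 mutant femurs and on 1 of 4 wild-type femurs (25.8, replicate 1), so it was not tested there.

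The difference between the tissues in the genotype effect was tested in 1 fit of all 16 arrays, as the effect in white adipose tissue minus that in femur. By limma, 2 of the 7 probes passed as more negative in white adipose tissue, against 4.21% of 15741 probes. Bmp3 differed by -0.67 ± 0.17 (adjusted p = 0.0351), with every mutant below every wild type in fat and an overlap in femur. Trp53inp2 differed by -0.58 ± 0.17 (adjusted p = 0.0476). Sfrp5 had -0.85 ± 0.37 (adjusted p = 0.154), a value bounded by the floor in femur. Npr3 had -0.13 ± 0.26 (adjusted p = 0.768) and Mest, by its brightest probe, -0.04 ± 0.31 with a 95% interval of -0.69 to 0.61 (adjusted p = 0.936). The other Mest probes had -0.51 ± 0.34 (adjusted p = 0.335) and -0.69 ± 0.40 (adjusted p = 0.281), so the probes of Mest disagree on this difference.

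Both calls were close to the threshold. With the animal as a replicate block, Bmp3 stayed past it (limma adjusted p = 0.0442) and Trp53inp2 did not (0.0588). Leaving out any 1 of the 4 mutants or wild type replicate 1 or 2 ended the call of Bmp3 (adjusted p = 0.0574 to 0.127). Leaving out any 1 of the 4 mutants or wild type replicate 1, 2 or 3 ended that of Trp53inp2 (adjusted p = 0.0548 to 0.17). The log2 difference itself lay between -0.75 and -0.55 for Bmp3 and between -0.71 and -0.51 for Trp53inp2 in these fits.

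**Figure D4:**
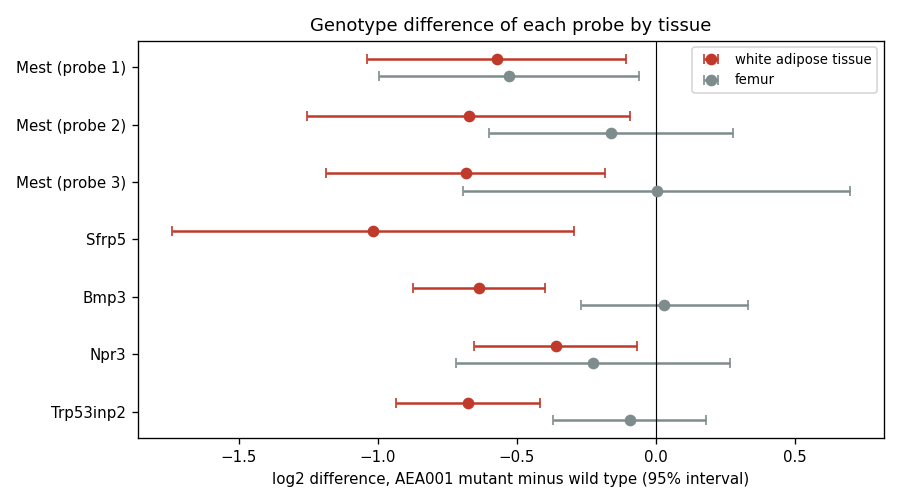
Log2 difference of mutant minus wild type (x axis) with its 95% interval from limma, for each probe in white adipose tissue and in femur, where Sfrp5 was not tested. All 7 white adipose intervals lie below 0, while 5 of the 6 femur intervals include 0.

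Each gene was expressed more highly in white adipose tissue than in femur, in both genotypes. All 7 probes passed in mutants, against 38.9% of 15741 probes called higher in that direction, and all 7 in wild types, against 39.3%. Sfrp5 passed the filter only through white adipose tissue, so its call follows from the filter. Npr3 differed most, by 7.41 ± 0.19 on the log2 scale (170-fold) in mutants and 7.55 ± 0.19 (187-fold) in wild types, with limma adjusted p-values of 1.97e-14 and 1.45e-14. Of all probes, 3 had a more positive tissue difference in mutants and 1 in wild types. Its femur signals lay within a few times the floor of 16, so these folds depend on how background was set. Mest differed by 4.51 ± 0.22 (22.9-fold) in mutants and 4.56 ± 0.22 (23.6-fold) in wild types, with limma adjusted p-values of 2.65e-11 and 2.31e-11. Sfrp5 was at least 12.3-fold higher in white adipose tissue of mutants and at least 22.1-fold higher in that of wild types, with femur values set to the floor.

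The other genes, Trp53inp2 and Bmp3, were clearly present in femur too. Trp53inp2 differed between the tissues by 1.07 ± 0.12 (2.10-fold, limma adjusted p = 5.73e-07) in mutants and by 1.65 ± 0.12 (3.14-fold, limma adjusted p = 3.16e-09) in wild types. Bmp3 differed by 0.34 ± 0.12 (1.27-fold, limma adjusted p = 0.0174) in mutants and by 1.01 ± 0.12 (2.01-fold, limma adjusted p = 1.44e-06) in wild types. In mutants the difference of Bmp3 did not pass after cyclic loess normalization (0.22, adjusted p = 0.107) or without mutant replicate 1 (0.29, adjusted p = 0.0815) or 2 (0.26, adjusted p = 0.0919). The order of the group means was thus the same at its upper end for all 5 genes, with wild-type white adipose tissue first and mutant white adipose tissue second. Neither the upper neighbours, wild-type and mutant white adipose tissue, nor the lower, mutant and wild-type femur, passed for any probe tested by tissue.

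Other genes tied to these 5 were read from lists drawn up from general knowledge. Caveolae are small pits of the cell surface that are dense on adipocytes. Of the 6 caveola coat genes, 5 had a lower mean in mutant white adipose tissue, with a median log2 difference of -0.49. By limma 0 passed, and 4 were lower at an unadjusted p under 0.05, as were 13.4% of all probes. Cav2 was -0.63 ± 0.20, Cavin1 -0.52 ± 0.20, Cavin3 -0.52 ± 0.12 and Ehd2 -0.46 ± 0.14, 4 genes named after their values were seen, with limma adjusted p-values from 0.112 to 0.156. The brightest members lay near 0, Cav1, the main coat protein, at -0.07 ± 0.10 and Cavin2 at 0.14 ± 0.10. In femur the list had 5 of 6 genes higher in mutants and a median of 0.24, with 0 called.

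Leptin, whose transcript is known to rise with fat mass, was among the genes most like Npr3. Lep averaged 16088 ± 4091 in mutant and 24967 ± 3053 in wild-type white adipose tissue (SD, n = 4 each), with a log2 difference of -0.66 ± 0.19 (limma adjusted p = 0.112). Its groups did not overlap, as was so for 7.74% of all probes in that direction. The adipocyte markers did not share that direction as a list. Of 19 measured, Lep among them, 7 were lower and 12 higher in mutants, with a median of 0.11 and 0 called. At an unadjusted p under 0.05, 1 was lower, Lep itself, and 5 were higher, against 13.4% and 12.7% of all probes. The lipid droplet gene Plin1 was 0.38 ± 0.10, Cidea 0.49 ± 0.12 and Adipoq 0.27 ± 0.09, with limma adjusted p-values from 0.112 to 0.13. They were named, as Lep was, after the values were seen. The brightest of the list, Lpl and Plin4, were 0.01 ± 0.07 and -0.01 ± 0.07. The list's mean log2 signal lay between 11.75 and 11.83 on mutant and between 11.63 and 11.80 on wild-type white adipose arrays.

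Around Sfrp5, 17 of 30 listed genes of Wnt antagonists, ligands, receptors and targets were measured in white adipose tissue. Of these 12 had a lower mean in mutants, with a median of -0.10 and 0 called. At an unadjusted p under 0.05, 3 were lower, as were 13.4% of all probes. Those 3 were the ligand Wnt5a (-0.42 ± 0.09), the receptor Fzd4 (-0.60 ± 0.21) and the co-receptor Lrp6 (-0.46 ± 0.16), named after their values were seen. The brightest, the antagonist Sfrp1 and the target Axin2, were 0.16 ± 0.23 and -0.08 ± 0.25. In femur 12 of 19 were lower, with a median of -0.05 and 0 called.

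Around Bmp3, 23 of 31 BMP and activin genes were measured in white adipose tissue, with 8 lower and 15 higher in mutants, a median of 0.11 and 0 called. At an unadjusted p under 0.05, 2 were lower and 2 higher, as were 13.4% and 12.7% of all probes. The lower ones were Bmp1, a protease that processes procollagen (-0.47 ± 0.10, limma adjusted p = 0.112), and the ligand Bmp6 (-0.57 ± 0.10, limma adjusted p = 0.108), which was dim, with means of 15.4 in mutants and 24.8 in wild types around the floor of 16. Id1, a direct target of BMP signals, was 0.81 ± 0.23 (limma adjusted p = 0.115). The related targets Id2 and Id3 were -0.06 ± 0.18 and 0.18 ± 0.13. The other gene higher at that p, the receptor Bmpr1b, was 1.07 ± 0.36 (limma adjusted p = 0.134). It was dim, with means of 62.9 in mutants and 27.0 in wild types. Bmp1, Bmp6, Id1, Id2, Id3 and Bmpr1b were named after their values were seen. The brightest, the type I receptor Acvr1c and the ligand Gdf10, were 0.35 ± 0.17 and 0.30 ± 0.20. In femur 7 of 22 were lower, with a median of 0.05 and 0 called.

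Around Npr3, 7 of 11 natriuretic peptide genes were measured in white adipose tissue, 2 lower and 5 higher in mutants, with a median of 0.14 and 0 called. At an unadjusted p under 0.05, 0 were lower and 1 higher, against 13.4% and 12.7% of all probes. Npr2, the receptor of C-type natriuretic peptide, was 0.47 ± 0.20 (limma adjusted p = 0.18) and the protease Furin -0.02 ± 0.10. Of the 16 autophagy genes near Trp53inp2, 11 were lower, with a median of -0.10, 0 called, and 1 lower and 2 higher at that unadjusted p. The brightest were Gabarap (-0.11 ± 0.10), whose product binds Trp53inp2 protein, and the receptor Sqstm1 (-0.09 ± 0.09). Of the imprinted growth genes, the class to which Mest belongs, 8 of 17 were measured, with 1 lower and 7 higher, a median of 0.15 and 0 called. At the same unadjusted p, 3 of them were higher, against 12.7% of all probes, and 0 lower. The brightest were Dcn (0.20 ± 0.08) and Nnat (0.10 ± 0.14). In femur the medians of the 3 lists were -0.04, 0.02 and -0.02, with 0 called in each.

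**Figure D5:**
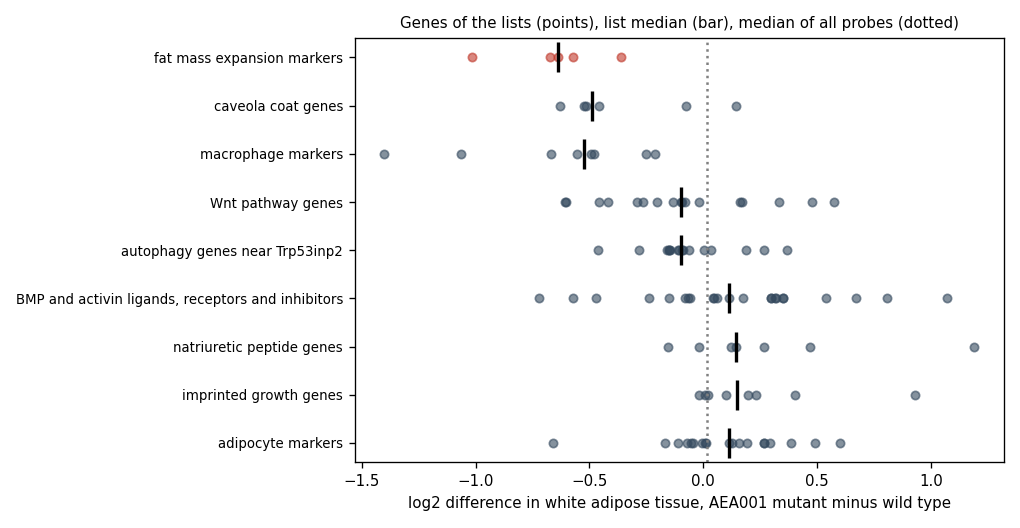
Log2 difference of mutant minus wild type in white adipose tissue (x axis) for each measured gene of 9 lists (points), with the list median (bars) and the median of all probes (dotted line). The median of the 5 fat mass expansion markers, -0.64, lies left of that of the adipocyte markers, 0.11, among which Lep, at -0.66, lies within the range of the 5.

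Markers of other cell types were read beside these genes in white adipose tissue, and 0 of them passed. Of 8 measured macrophage markers, 8 had a lower mean in mutants, with a median of -0.52 and 0 called. At an unadjusted p under 0.05, 6 were lower, against 13.4% of all probes. Their mean log2 signal lay between 9.83 and 10.18 on mutant arrays and between 10.29 and 11.15 on wild-type arrays, and their summed intensity between 12411 and 16594 on mutant arrays and between 17982 and 35754 on wild-type arrays. The lysozyme gene Lyz2 was -1.06 ± 0.29 and the complement gene C1qc -0.49 ± 0.14 with 1 listed marker on the array that did not pass the filter. In femur the same 8 markers had a higher mean in mutants, with a median of 0.43, 8 higher at an unadjusted p under 0.05, against 8.30% of all probes, and 0 called. The part of the macrophage markers in the white adipose differences was not tested. Endothelial markers had 5 of 6 lower and a median of -0.08, and B and T cell markers 2 of 3 lower and a median of -0.14. Adipose progenitor markers were split, with 4 of 7 lower, a median of -0.0033 and 3 lower at an unadjusted p under 0.05, against 13.4% of all probes. Those were Zfp423 (-0.40 ± 0.10), Thy1 (-0.46 ± 0.12) and Pdgfrb (-0.40 ± 0.12), named after the values were seen, while the other 4 lay between -0.0033 and 0.10. Each of those 3 was lower on every mutant than on every wild-type array, as were 7.74% of all probes. Mesothelium markers had 0 of 7 lower and a median of 0.54, and osteoblast markers 2 of 3 lower and a median of -0.04. Granulocyte markers had 0 of 4 lower and a median of 0.90, erythroid markers 0 of 4 lower and 0.74, and skeletal muscle markers 0 of 4 lower and 0.74. Without mutant replicate 2, the array that carried femur probes, these medians were 0.65 with 1 of 4 lower for granulocyte, 0.66 with 0 of 4 lower for erythroid and 0.30 with 1 of 4 lower for skeletal muscle markers. The granulocyte marker S100a8 had a median of 521 and a highest value of 9828 in mutant white adipose tissue, against a median of 1080 and a highest value of 1485 in wild-type white adipose tissue. The macrophage median without that array was -0.56, with 8 of 8 lower. Of the epididymis markers, 1 of 5 on the array passed the filter, at a mean of 11.7 in mutants and 4.47 in wild types, below the floor of 16. In all these lists 0 genes were called.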

How the data were processed

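Per the labels' protocols, Trizol extracts were cleaned on columns and copied into biotinylated cRNA. The values used were the intensity of each probe on a linear scale, deposited by the authors after GenomeStudio 2011.1, per the submitters' processing notes. How they subtracted background and normalized is not stated by any source here. On each array 25.3% to 25.4% of probes were negative, and once sorted the 16 arrays matched to within 0.797, as background subtraction and quantile normalization over both tissues would leave them. Such values cannot show a difference in total RNA. The table of raw signals was left out because the names of its 16 signal columns fit no sample.

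The platform annotation named 23978 probes with 1 gene, 0 with several and left 1719 unnamed. Members were matched by the platform symbol. For the lists, current names for 23962 probes came from RefSeq genes, and a gene was read by its brightest kept probe in the tissue. All fits were made by limma 3.58.1, run under R 4.3.3, with lmFit, eBayes and Benjamini-Hochberg adjustment over all kept probes, and tests were two-sided. Genotypes were compared within each tissue, and tissues in 1 fit of 4 group means over 15741 probes kept in either tissue. Exact permutation tests used 70 relabelings for a genotype difference and 40320 pairings for a correlation, all two-sided. For deviations from the genotype means the same pairings give approximate p-values only. Calling was tested on simulated data before use.

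The femur and white adipose arrays of an animal share a replicate number and animal identifier, so the animal was the block between tissues (consensus correlation -0.0694). Between genotypes the numbers mark different animals. Nothing beyond the identifiers says how the samples were prepared, and p-values measure the spread between these samples. The members and lists were chosen with earlier results of these data known. Genes of the lists are named as the 2 of highest signal where none was called, only for white adipose tissue and only for the pathway, adipocyte and macrophage lists, with exceptions stated. Reading the lists without mutant replicate 2 was added after seeing the data. Ednra itself was not analysed here.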

Additional observations from a re-analysis of the deposited data

Results flagged for a closer look

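In femur, 3 probes of the members had 1 wild-type array apart from the other 3 of its group, by Dixon's criterion on the log2 signal. Sfrp5 was at 4.69 on wild type replicate 1, with the other wild-type femurs at the floor of 4. Trp53inp2 was at 10.16 on wild type replicate 4, against 9.81 to 9.87 on the other wild-type femurs. A dimmer probe of Mest was at 6.37 on wild type replicate 2, against 5.69 to 5.78 on the others. In wild-type white adipose tissue, Cav1 was at 14.51 on replicate 1, against 14.31 to 14.34, Dcn at 14.09 on replicate 4, against 13.85 to 13.89, and Sqstm1 at 12.02 on replicate 4, against 12.24 to 12.29. Id2 was at 6.62 on wild type replicate 1 in white adipose tissue, against 6.04 to 6.12, and Bmp6 at 4.22 on AEA001 mutant replicate 2, with the other mutants at the floor of 4. Of 98 groups of 4 arrays looked at, 8 were marked, and chance marks about 1 in 20. The 2 cannot be set against each other, because of the floor. For Sfrp5 and Bmp6 the other 3 arrays were set to the floor, so any value above it is marked. A group wholly at the floor, such as Sfrp5 in mutant femur, cannot be marked but is counted.

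By limma's test of the difference itself, the effect of genotype was called different between white adipose tissue and femur for Bmp3 and Trp53inp2. The differences were -0.67 (limma adjusted p = 0.0351) and -0.58 (limma adjusted p = 0.0476) on the log2 scale. Of all probes, 4.21% passed in that direction. Both calls were close to the threshold, and of 17 alternatives run, 7 ended that of Bmp3 and 11 that of Trp53inp2.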

How the results depend on the processing

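The white adipose differences of Sfrp5, Bmp3, Trp53inp2, Npr3 and the 3 Mest probes stayed negative under every alternative run. Their log2 values lay between -1.21 and -0.76 for Sfrp5, -0.69 and -0.59 for Bmp3, -0.73 and -0.59 for Trp53inp2, -0.44 and -0.25 for Npr3 and -0.75 and -0.44 for the brightest probe of Mest. Of the 7 probes, 1 was called when eBayes used a trend and robust settings and 3 in 1 fit of all 16 arrays. Sfrp5, at the floor in most femurs, was among those 3.

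Of all probes, the count called in white adipose tissue, 2 in the fit reported, was 11 with a floor of 32, 7 with the trend, 936 in 1 fit of all 16 arrays and 0 with a floor of 8, without the filter, over probes above 32 on all arrays, by gene means, without the pair of animals that share an identifier and with the replicate block. It was 0 to 3 with 1 array left out, the 3 without wild type replicate 1. In femur it was 1 in the fit reported, 4 and 2 with floors of 32 and 8, 2 without the filter, 0 over probes above 32, 3 with the trend, 2 with array weights, 398 without the pair of animals, 152 in 1 fit of all 16, 0 by gene means or with the replicate block, and 0 to 702 with 1 array left out, the 702 without wild type replicate 3. For the difference between tissues the count was 1197 in the fit reported, 343 without the filter, 2513 with array weights, 1890 without the pair and 1 to 2828 with 1 animal left out, and of the 7 probes 1 was called with a floor of 8, without the pair or with the animal as replicate block, 0 without the filter and 0 to 2 with 1 animal left out.

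The number of probes whose genotypes did not overlap in white adipose tissue was 2 to 7 with 1 array left out. Of 10 pairs of members, 2 passed as deviations from the genotype means, by permutation p-values that are not exact. With 1 array left out 6 to 10 passed, the 6 without mutant replicate 3 or wild type replicate 1.

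Some values took the opposite sign, and these were not all small. In femur the dimmest Mest probe was -0.14 with a floor of 32, -0.074 with array weights, -0.33 without the pair and -0.31 to 0.25 with 1 array left out, and Bmp3 was -0.0070 with array weights and -0.069 to 0.13 with 1 left out. The difference between tissues was -0.24 to 0.22 for Mest, and for Npr3 -0.29 to 0.0017, with 1 animal left out, and 0.055 for Npr3 without the pair. In white adipose tissue Axin2 was 0.038 and Furin 0.0062 with array weights. Bmp6 was 0 with a floor of 32, above all its values. With 1 array left out Id2 was -0.19 to 0.072, Axin2 -0.30 to 0.066, Furin -0.072 to 0.023, Lpl -0.013 to 0.028 and Plin4 -0.020 to 0.013. The cause of these changes was not tested.

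Deviations of same-numbered mutants and wild types correlated between -0.06 and 0.33 in white adipose tissue, at 0.33 for replicate 1 and also for replicate 4. Those of femur and white adipose tissue from the same animal, which are true pairs, correlated between -0.24 and 0.03. Those pairs cross tissues, so they do not show what a shared number means within white adipose tissue. Whether the numbers pair the genotypes there is not settled. The animal block changed no other call of a member. Background correction of the table before normalization and the slide as a block were not run, since the sources tie neither to a sample. Dim signals in femur limit Mest, Npr3 and Sfrp5 there.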
